A study of Equus caballus with 93 samples.

Results

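The 16 libraries described here hold the RNA of cells spun down from the synovial fluid of 16 horses at week 0, before the middle carpal joint was operated on, and they were selected as every column of the deposited table that carries the week 0 label. They are 16 of the 93 libraries in the table. Surgery later produced an osteochondral fragment in the sampled joint, a model of osteoarthritis. At week 2 the joints of 8 of the horses received 2 mL of 2.5% injectable polyacrylamide hydrogel (iPAAG), and those of the other 8 received saline (Control). The horses were 2 to 5 years old and comprised 7 mares and 9 geldings, and the labels do not tie sex or age to a horse. Horses 1, 2, 9, 10, 11, 13, 15 and 16 later formed the Control arm and horses 3, 5, 6, 7, 8, 12, 14 and 17 the iPAAG arm. At week 0 none of the joints had been operated on or injected, so the arms are names for what came later. Each horse gave 1 library, and the fluid was digested with hyaluronidase before the cells were pelleted.

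Synovial fluid lubricates the joint through hyaluronan and lubricin made by the lining cells. In a healthy joint it carries few cells, mainly macrophages and lymphocytes, with few neutrophils and some shed lining cells. Injury or infection of a joint raises the cell number and shifts this mixture, for which reason the resting profile is the baseline of a joint study. The deposited table names genes by Ensembl horse identifiers only, and 0 of 15838 had a gene name in the table of names used here. The cell types in the fluid were therefore not compared with marker genes, and no role is given for any gene. In such bulk samples, fewer cells of a type and less RNA per cell cannot be told apart.

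Expression is given as log2 CPM, the log2 of a gene's reads scaled to a normalised size of its library. The size that the deposited values imply was 1.40 times the reads counted in genes in horse 14. In the other 15 horses it was 0.854 to 0.974 times. At an equal share of reads, log2 CPM is therefore lower in horse 14 than in the other horses. The libraries held 12597216 to 36660119 reads in genes. The library of horse 14 stood apart as a flat one: its SD of log2 CPM over all genes, called its spread below, was 1.65, against 2.82 to 4.21 in the other 15. It was the only library at week 0 with a spread below 2, compared with 22 of 77 at the later weeks. Its Pearson correlation with the other libraries, taken over genes, had a median of 0.71, while the same median was 0.861 to 0.933 for each of the other horses. Only 3 genes had no read in horse 14 and only 5 in horse 8, whose spread of 2.82 was the next lowest. Horse 11 stood at the other end, with the widest spread (4.21) and 2360 genes without a read, 1005 of which had reads in every other horse. The remaining 13 horses had 262 to 744 such genes. Values over all 16 libraries come first, and those over the 15 libraries other than horse 14 are set beside the counts, spreads and tests that it moved most.

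**Figure D1:**
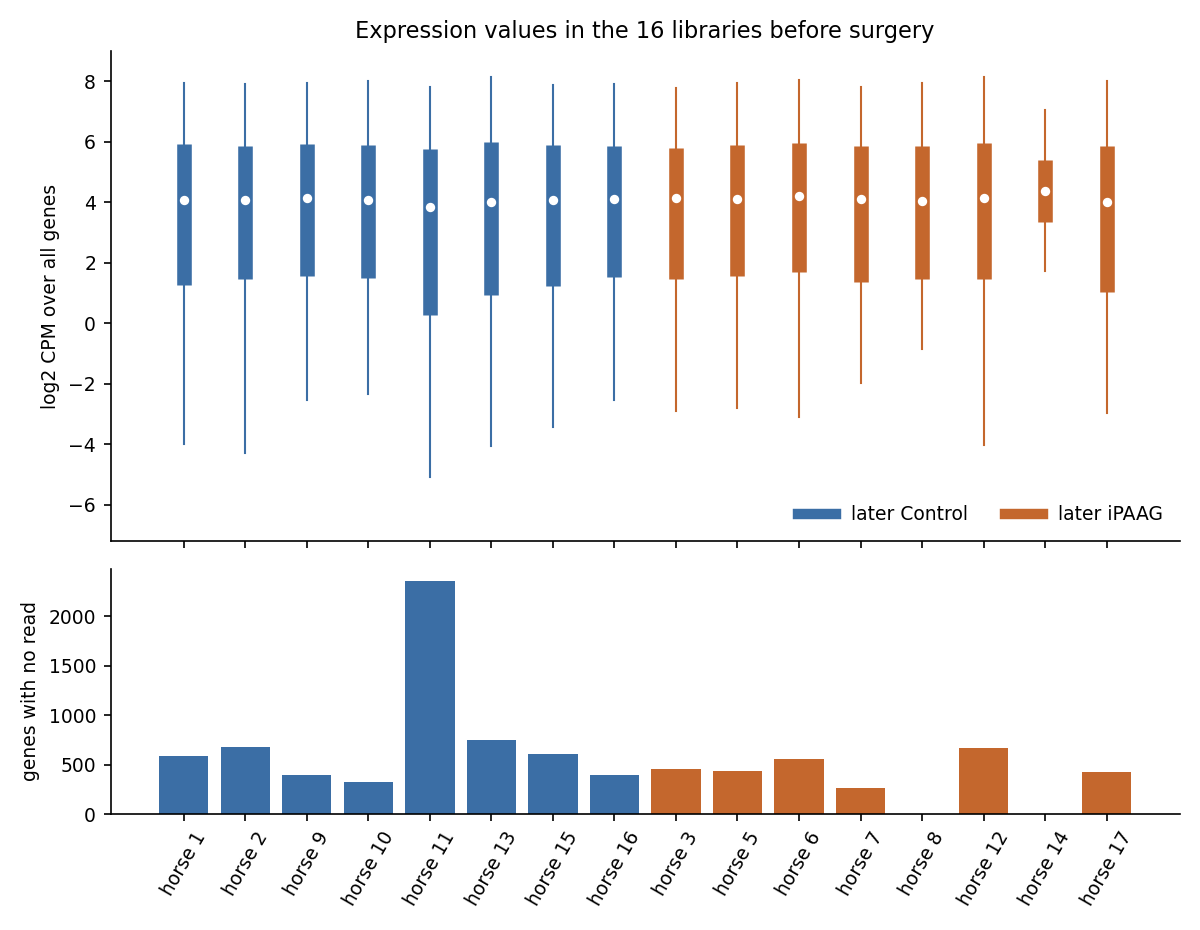
Upper panel, log2 CPM of 15838 genes in each of the 16 libraries before surgery, with the median as a white point, the 25th to 75th percentile as a bar and the 5th to 95th percentile as a line; lower panel, the number of genes with no read. Horse 14 has the narrowest range and 3 genes with no read, and horse 11 has the most such genes, 2360.

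The resting profile was spread over many genes. In the average library 50% of the reads lay in 841 genes and 90% in 5640 (814 and 5425 without horse 14). The 234 genes with a mean of 9 log2 CPM or more made up 1.48% of the genes and took a median of 31.4% of a library's reads, with a range of 25.9 to 34.8%. The 3326 genes from 6 to 9 took the largest share, a median of 49.5% (42.5 to 51.5%). The 6175 genes from 3 to 6, the most numerous class at 39.0% of the genes, took 17.5% (16.4 to 21.7%). Below these, 3377 genes between 0 and 3 took 1.44% (1.02 to 5.54%) and 2726 genes below 0 took 0.170% (0.0762 to 4.37%). The values are per library and not per gene length, so the classes order genes by their reads and not by their number of transcripts.

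The lowest class separated the horses most. Its genes took 4.37% of the reads in horse 14 and 2.67% in horse 3, and the share was lowest, 0.0762%, in horse 11. The median gene of that class stood at 3.07 log2 CPM in horse 14 and at -5.09, the value of a gene with no read, in horse 11. Without horse 14 the 5 classes held 2907, 3254, 6028, 3407 and 242 genes, from the lowest to the highest. The highest share of reads was then 2.73% in the class below 0 and 2.56% in the class from 0 to 3, both in horse 3.

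ENSECAG00000032733 had the most reads of any gene on average, with 14.55 ± 0.41 log2 CPM (SD, n = 16). Its lowest value was 13.96 in horse 14, its median 14.50 and its highest 15.29 in horse 7, and it took 1.60 to 3.66% of a library's reads. It was the gene with the most reads in 10 of the 16 libraries. ENSECAG00000034383 came second with 13.81 ± 0.61 log2 CPM (SD, n = 16). It ranged from 12.27 in horse 14 over a median of 13.88 to 14.64 in horse 12, and its SD fell to 0.47 without horse 14. Both genes were therefore abundant in every horse, and horse 14 held the lowest log2 CPM of each. By share of reads, ENSECAG00000032733 took 2.23% in horse 14, beside a mean of 2.35% over the 16 libraries. Its lowest share, 1.60%, was thus in another horse. The top 10 genes of a library together took 8.39 to 12.3% of its reads.

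Most well-measured genes differed little between horses. Among the 5827 genes with a mean of at least 5 log2 CPM, 4344 (74.5%) had an SD over horses of 0.5 or less, here called stable (4543 without horse 14), and the median SD was 0.375 (0.337 without horse 14). An SD of 2 was reached by 3 of these genes, with or without horse 14. The spread depended on abundance: the median SD was 2.30 for genes below 0 log2 CPM, 1.14 from 0 to 3, 0.42 from 3 to 6, 0.38 from 6 to 9 and 0.43 at 9 or more. Without horse 14 these medians were 1.96, 1.01, 0.41, 0.32 and 0.37. The median SD that counting of reads alone would give was 0.865 in the lowest class, 0.204 from 0 to 3 and 0.0602 or less above that, when each PCR-amplified read is taken as independent.

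**Figure D2:**
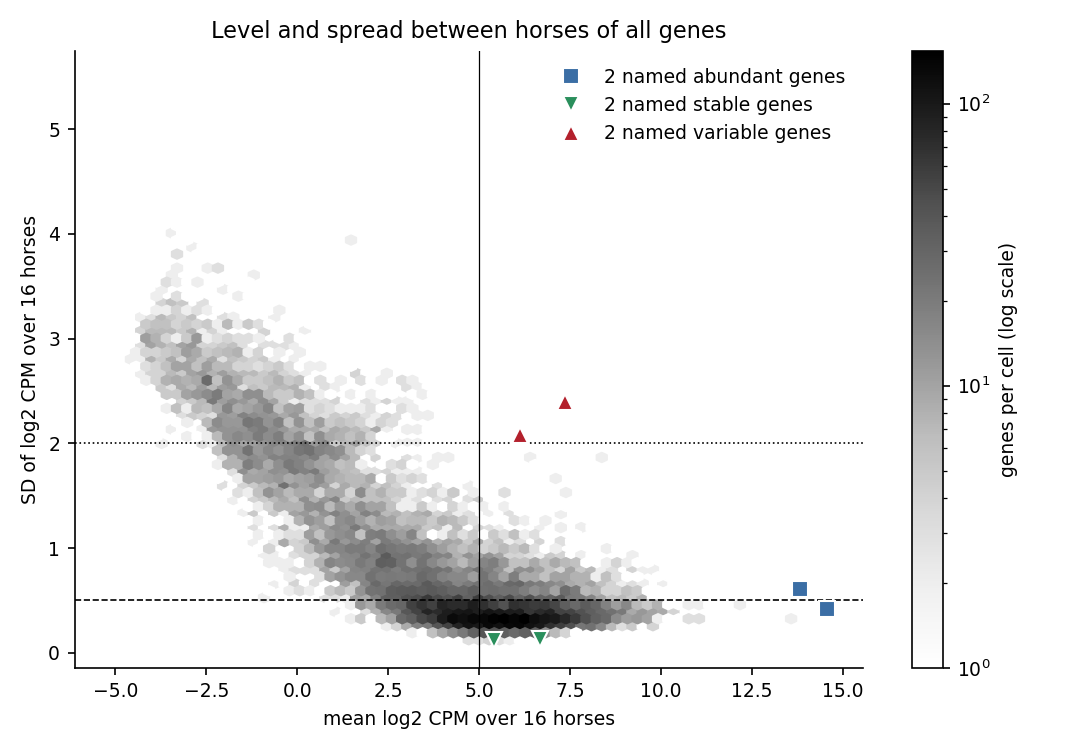
Mean and SD of log2 CPM over the 16 horses for 15838 genes, shaded by the number of genes per cell of the plot on a log scale, with the 2 named abundant, stable and variable genes as coloured symbols. Spread falls steeply up to a mean of about 3, and the 2 named variable genes lie at an SD of 2.08 and 2.39; the third gene with a mean of at least 5 and an SD above 2, ENSECAG00000022791 (2.04), is given because the count is small and was chosen after its values were seen.

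ENSECAG00000025134 varied least over the 16 libraries among genes with a mean of at least 5, with 5.41 ± 0.124 log2 CPM (SD, n = 16). It ranged from 5.25 in horse 14 over a median of 5.39 to 5.64 in horse 11. By share of reads, horse 14 was instead the highest library for this gene, at 0.00532%. ENSECAG00000000817 followed with 6.67 ± 0.132 log2 CPM (SD, n = 16), from 6.43 in horse 12 over a median of 6.66 to 6.85 in horse 7. In log2 CPM, the libraries that stood apart held the extremes of the first gene and not those of the second. Both places depend on horse 14: without it the 2 genes ranked 26 and 29 among the 5827 by SD, at 0.120 and 0.122. ENSECAG00000018984, chosen after its values were seen, then had the lowest SD, 0.0778, against 0.220 with horse 14.

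ENSECAG00000003925 varied most among genes with a mean of at least 5 and had 2 separate levels. It stood at 3.10 in horse 2, 3.26 in horse 16, 3.36 in horse 12 and 3.93 in horse 8. In the other 12 horses it lay between 7.81 (horse 14) and 9.42 (horse 7), with no horse in the gap of 3.87 between the levels. The SD over all 16 horses was 2.39, and 2.47 without horse 14. Of the 4 low horses, 2 later entered each arm. The genes were ranked by this spread, so the 2 levels at week 0 are a description.

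The later libraries of the same horses were not used in that choice. At week 2 the 4 horses lay at 4.04 to 4.37 and the other 12 at 6.86 to 10.43. Among libraries with a spread of at least 2, the highest value of the low horses stayed below the lowest value of the others at every later week. Week 0 had defined the groups. The pairs of values were 3.93 and 7.86 before surgery, then 4.37 and 8.70 (week 2) and 5.13 and 8.68 (week 4). Later pairs were 4.67 and 8.22 for week 6, 4.47 and 8.03 for week 8, and 3.78 and 8.83 for the last visit. When the flat libraries were included, the groups overlapped at week 4 only, where horse 7, in a flat library, stood at 4.25. Low horses with a library of ordinary spread numbered 4 at weeks 0, 2, 4 and 8 but only 2 at weeks 6 and 10. Other horses with such a library numbered 11, 10, 6, 8, 9 and 6 from week 0 to week 10. In these libraries each horse stayed at the level it had before surgery. Within the 12 high horses, the week 0 value showed no relation to the week 2 value that passed a permutation test (Pearson r = 0.27, p = 0.404; Spearman rho = 0.36, p = 0.245), and r was -0.01 without horses 14 and 6. The gene with the most similar pattern over the 15 libraries was ENSECAG00000034339, with r = 0.79, given as a description.

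**Figure D3:**
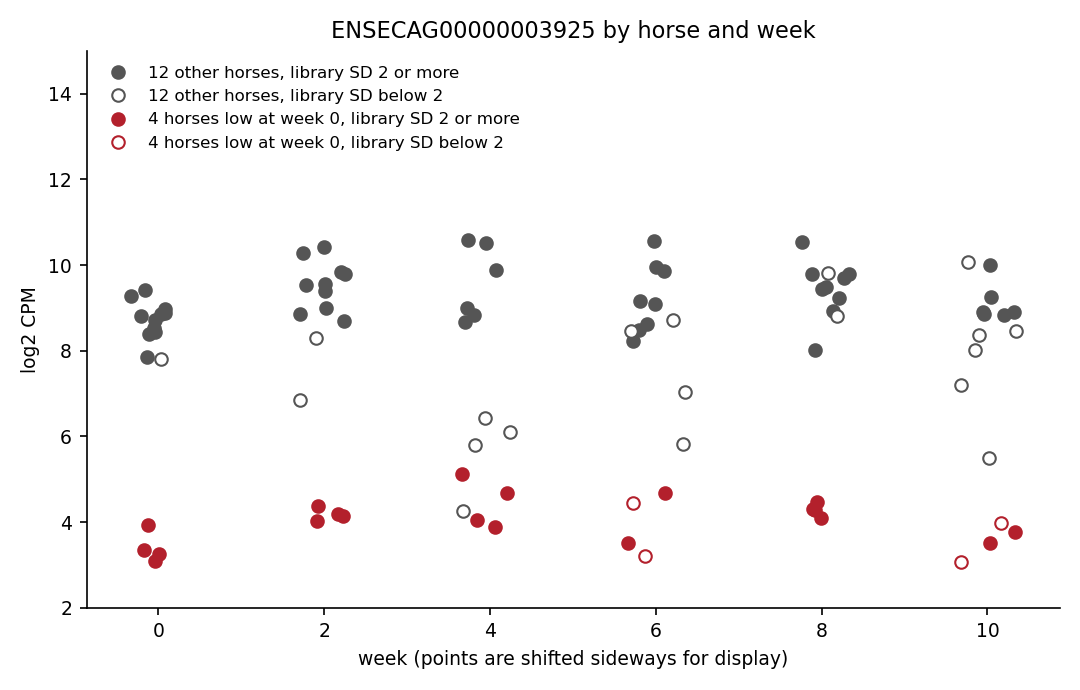
log2 CPM of ENSECAG00000003925 in each horse by week, with the 4 horses low at week 0 in red and the other 12 in grey; open points are libraries with a spread below 2, and points are shifted sideways for display. Filled points of the 2 colours do not overlap at any of the 6 weeks.

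ENSECAG00000018455 was next, and its values formed a continuous range. It stood at 6.12 ± 2.08 log2 CPM (SD, n = 16), from 1.45 in horse 11 over a median of 6.54 to 8.81 in horse 2. Without horse 14 its SD was 2.15. The relation of its week 0 and week 2 levels over the 16 horses did not pass a permutation test (Pearson r = 0.27, p = 0.324, adjusted p = 0.404 over the 2 genes tested; Spearman rho = 0.33, p = 0.214, adjusted p = 0.245). Without horses 11 and 13, the farthest from the median, r was 0.23. Unlike ENSECAG00000003925, this gene gave no fixed level per horse that could be detected here.

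The order of horses in ENSECAG00000018455 was shared with other genes. Over the 15 libraries its nearest pattern was that of ENSECAG00000013693 (r = 0.97), a gene chosen for description after its values were seen, which ranged from 6.43 in horse 11 to 11.81 in horse 2. The variable set, the 276 genes with a mean of at least 5 and an SD in the top 5% both with and without horse 14, contains 28 other genes with r above 0.8 to ENSECAG00000013693. These are 10.2% of the other 275 variable genes, and over all 5826 other genes with a mean of at least 5 the count was 32 (0.549%). The libraries share depth and composition, so these correlations carry no p-value. Relative to each gene's mean, the median of the 29 genes was lowest in horse 11 (-2.90), horse 13 (-2.22) and horse 9 (-1.35). It was highest in horse 8 (1.64), horse 6 (1.55) and horse 2 (1.53). At week 2 horse 8 was again the highest with a median of 1.53 and horse 13 again the second lowest with -2.06, while horse 2 lay at -0.57 and horse 11 at -0.15. The correlation of week 0 and week 2 values of the same gene had a median of 0.33 over these genes. Of the 28 genes, 13 still had r above 0.8 to ENSECAG00000013693 at week 2. The median r to that gene was 0.90 at week 0, where the genes were chosen by it, and 0.74 at week 2. A share over all genes at week 2 is not given.

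**Figure D4:**
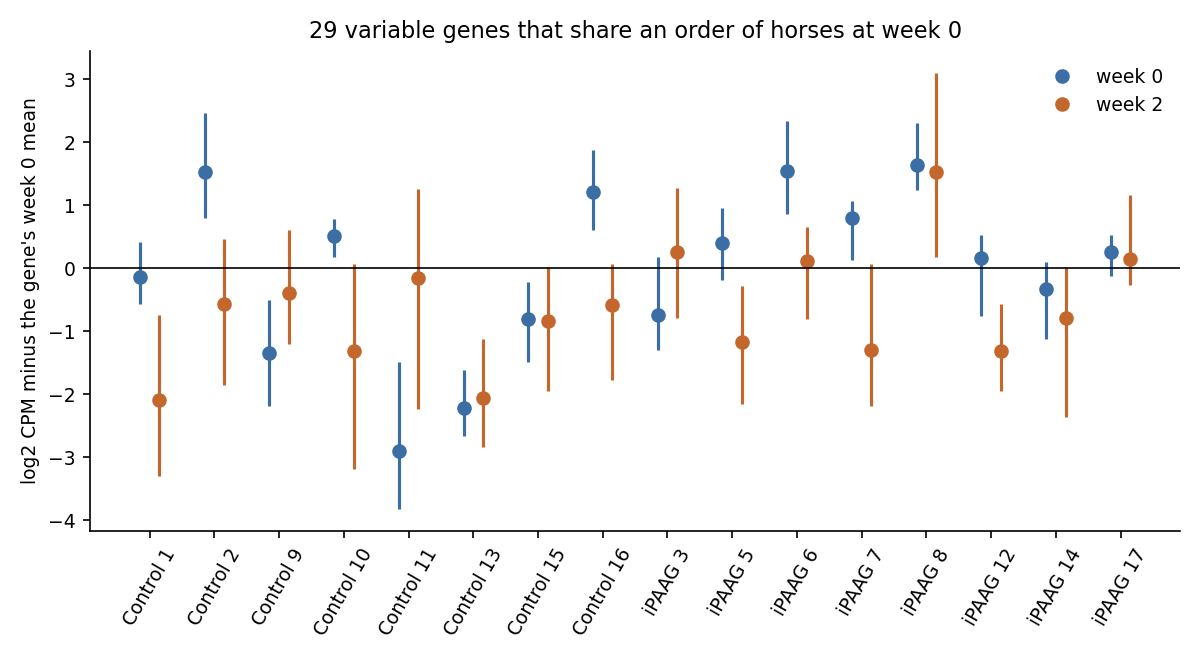
Median (point) and 10th to 90th percentile (line) over the 29 genes of log2 CPM minus each gene's week 0 mean, for each horse at week 0 and week 2. At week 0 the medians run from -2.90 in horse 11 to 1.64 in horse 8, and horse 11 moves to -0.15 at week 2.

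With the flat libraries included, the variable set as a whole kept little of its order between visits. Over the 16 horses the correlation of a gene's week 0 and week 2 values had a median of 0.26 in the 276 variable genes and of 0.21 in all 5827 genes with a mean of at least 5. It exceeded 0.8 in 3 of the 276 and in 8 of the 5827 genes.

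A few genes were set apart by a single horse. ENSECAG00000039582, chosen after its values were seen, stood at 1.21 in horse 12 and at 6.67 to 8.80 in the other 15 horses. Horse 12 was also the lowest at each later week, with -5.24 in the week 2 sample and, in order of the 4 visits after it, -3.93, -3.23, -5.04 and -4.79. At week 2 horse 5 was low as well, at -1.98, and at the other weeks the other horses were at 4.39 or higher.

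Genes that were rare in most horses but reached a high level in at least 1 numbered 176, defined by a median below 0 and a highest value of at least 5 log2 CPM. Of these, 121 reached 5 in horse 14, the flat library, and all 121 had their highest value there. Most of the set was thus chosen through that library, and a set chosen without it is not given. In libraries of ordinary spread, 52 reached 5 in horse 3 and 15 in horse 1, with 13 in both, which is 25% of those of horse 3 and 86.7% of those of horse 1. Horses 8 and 12 had 1 each and the others none. The 176 genes together took 2.31% of the reads of horse 3 and 0.214% of those of horse 1. ENSECAG00000049656, the highest of them and chosen after its values were seen, stood at 12.82 in horse 3, 5.43 in horse 1 and 4.10 in horse 14, and at -0.17 or lower in the other 13 horses. At week 2 it stood at -1.71 in horse 3. By then only 3 of the rare genes reached 5 in horse 3 and 1 in horse 1, whereas 130 did in horse 10 and 116 in horse 14, the 2 flat libraries of week 2. Because the set was chosen largely through a flat library, the counts in flat libraries are a description.

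Horse 11 lacked reads for genes that all other horses had. There were 57 genes with no read in a single horse and at least 1 log2 CPM in the other 15, and 56 of them were absent from horse 11. ENSECAG00000016927, chosen after its values were seen as the one with the highest mean, had no read in horse 11 and 1.55 to 6.18 log2 CPM in the others. At week 2 it stood at 2.80 in horse 11, and all 56 genes had reads there. Horse 11 was then the lowest horse for 8 of the 56 (14.3%), and for 5.51% of all genes in the same range of means. With 17431476 reads, its week 0 library was among the shallower ones, and the part of depth in these absences was not tested.

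The horses later given iPAAG and those later given saline were compared to see how balanced the arms were before surgery. By limma's moderated test on the 16 libraries with Benjamini-Hochberg adjustment over all genes, 0 of 15838 genes (0%) differed at an adjusted p below 0.05, and the smallest adjusted p was 0.885. At an unadjusted p below 0.05 there were 669 genes (4.22%), of which 564 were higher in the later iPAAG horses and 105 in the later Control horses. Share and direction differed by abundance. In the class below 0 log2 CPM, 309 of 2726 genes (11.3%) reached this unadjusted level, and 308 of them were higher in the later iPAAG arm. Among the 5827 genes with a mean of at least 5 they numbered 78 (1.34%), 11 higher in iPAAG and 67 in Control. All genes come from the same 16 libraries, so these directions are not separate observations. The iPAAG arm held the flat library of horse 14, and the Control arm held horse 11, with the most genes without a read. Without horse 14 the unadjusted count was 380, with 312 higher in iPAAG, and 0 genes were called. In the class below 0 the count was then 160 (5.87%), 155 of them higher in iPAAG. With a mean of at least 5 it was 57 (0.978%), and the split turned to 35 higher in iPAAG and 22 in Control. With the library's spread as a covariate the unadjusted count was 166, again with 0 called. Without horses 11 and 14, a choice made after seeing the data, it was 335 with 0 called. The share of all genes with the higher mean in iPAAG was 55.9%, 58.9% without horse 14 and 53.0% without horses 11 and 14.

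**Figure D5:**
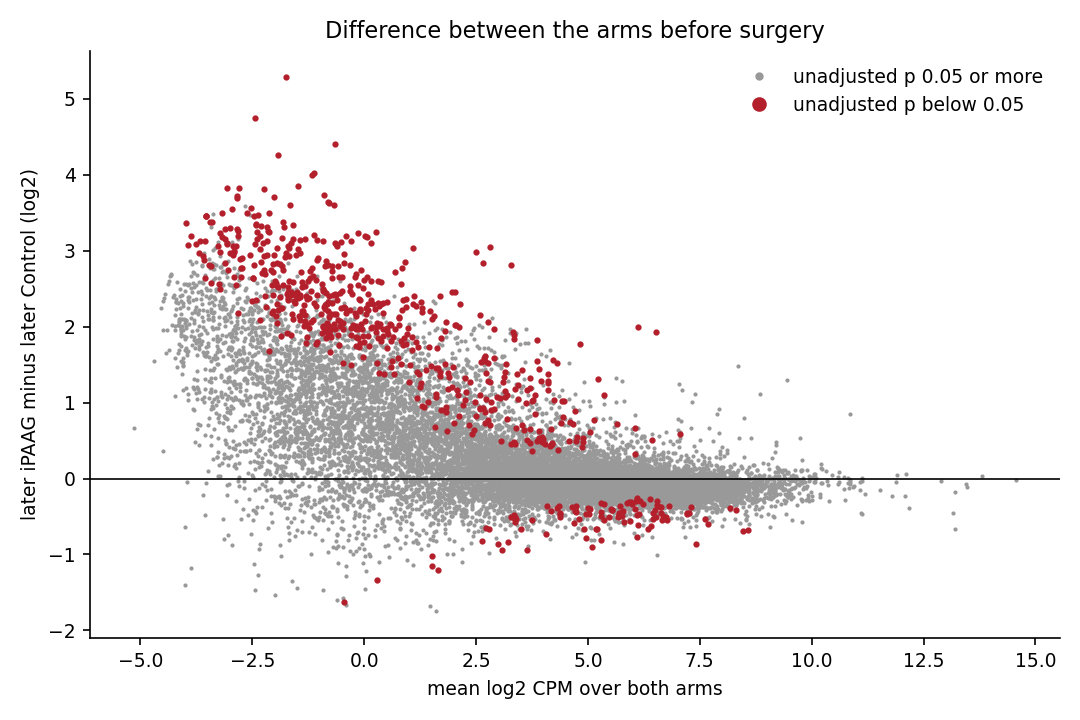
Difference between the later iPAAG and later Control means against the mean log2 CPM for 15838 genes before surgery, with genes at an unadjusted p below 0.05 in red. Red points at a mean below 0 lie almost all above the zero line (308 of 309), and 0 genes passed after adjustment.

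The precision of this comparison differed by abundance. The 95% confidence interval of the arm difference lay within 1 log2 unit of zero for 5359 of the 5827 genes (92.0%) with a mean of at least 5, where its median half-width was 0.394. In the class below 0 this held for 1 of 2726 genes, with a median half-width of 2.28. For nearly all genes of that class the interval thus included differences of more than 2-fold between the arms before surgery.

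The gene of lowest p, ENSECAG00000016615, had a Control range of 0.72 to 3.70 with a median of 2.31 log2 CPM and an iPAAG range of 2.76 to 5.87 with a median of 4.31. The ranges overlapped, the iPAAG mean was higher by 1.89 ± 0.43 (SE, n = 8 per arm), and limma gave an unadjusted p of 0.000309 and an adjusted p of 0.885. The second gene higher in iPAAG, ENSECAG00000020835, had a median of 9.5 reads per library and no read in 4, and its fitted difference of 4.26 ± 1.00 (SE) varies with the 0.5 reads that log2 CPM adds before the log: it was 2.27 with 5 added reads. Higher in Control were ENSECAG00000020888, by limma -0.68 ± 0.21 (SE; iPAAG minus Control), and ENSECAG00000019056, -0.45 ± 0.14 (SE), which became -0.27 with array weights and -0.28 with library spread as a covariate. ENSECAG00000020888 ranged from 8.28 to 9.93 in Control and from 7.53 (horse 14) to 8.53 in iPAAG, and ENSECAG00000019056 from 5.66 to 6.27 and from 4.88 (horse 14) to 5.82. All of these ranges overlapped, and the adjusted p by limma was 0.885 for each of the 4 genes. ENSECAG00000003925, with 2 low horses in each arm, differed by 0.06 with a 95% interval from -2.19 to 2.31. ENSECAG00000018455 was higher in iPAAG by 1.99 (95% interval 0.29 to 3.70), but its adjusted p by limma was 0.885. The 29 genes of the shared order, of which it is one, all had the higher mean in iPAAG, with a median difference of 0.92 and none called, against 55.9% of all genes with the higher mean there. They were chosen for following 1 pattern over the horses, so the 29 directions are not separate observations. The 3 lowest horses of that pattern, 11, 13 and 9, are later Control horses, and so is horse 2, one of the 3 highest.

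Library values were also compared between the arms by two-sided exact permutation tests over 6 measures. The spread was 3.53 ± 0.32 in Control and 3.07 ± 0.61 in iPAAG (SD, n = 8 each; exact p = 0.0418, adjusted p = 0.114). Genes with no read numbered 762.5 ± 662 in Control and 351 ± 243 in iPAAG (exact permutation p = 0.0572, adjusted p = 0.114). The number of genes expected in a random draw of 12597216 reads was 14885 ± 644 in Control and 15359 ± 313 in iPAAG (exact permutation p = 0.0443, adjusted p = 0.114). None of these passed adjustment. Without horse 14 the exact permutation p was 0.0836, 0.114 and 0.0886 for the 3 measures (adjusted p = 0.228 for each). Without horses 11 and 14, the spread was 3.44 ± 0.17 in Control and 3.27 ± 0.23 in iPAAG (n = 7 each; exact p = 0.157, adjusted p = 0.427). Genes with no read then numbered 534 ± 161 in Control and 401 ± 214 in iPAAG, and genes expected at the common depth 15102 ± 204 and 15291 ± 267 (exact permutation p = 0.213 and 0.166, adjusted p = 0.427 for both). Reads in genes (exact permutation p = 0.909) and the shares of reads in the top 10 and top 100 genes (exact permutation p = 0.329 and 0.868) did not pass either.

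The resting genes were followed to week 2, after surgery, in the same 16 horses. The comparison over both arms does not separate surgery from elapsed time, and the labels do not place the week 2 sampling before or after the injection. By limma with horse as a block, 4195 of 15838 genes were called (26.5%), 1877 higher (11.9%) and 2318 lower (14.6%) at week 2. Without the flat libraries, 3019 of 5730 called genes were higher and 2711 lower, and with each library centred on its median 2262 of 3858 were higher and 1596 lower, so the balance of directions turned with these choices. ENSECAG00000025134, the gene of lowest SD over the 16 libraries, rose by 0.28 ± 0.086 (SE; adjusted p = 0.0139 by limma) and was higher in 14 of 16 horses. With all 93 libraries in the fit its adjusted p was 0.0676. ENSECAG00000000817 differed by 0.15 ± 0.10 (SE; adjusted p = 0.291), and by 0.27 (adjusted p = 0.000442) without the flat libraries of weeks 0 and 2, both by limma.

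The abundant genes were not called: by limma ENSECAG00000032733 differed by -0.09 ± 0.82 (SE; adjusted p = 0.955) and ENSECAG00000034383 by -0.60 ± 0.54 (SE; adjusted p = 0.445). These SEs are drawn towards limma's mean-variance trend over genes and are not the scatter of the gene alone. Without the flat libraries limma gave 0.10 ± 0.21 (SE; adjusted p = 0.743) and -0.44 ± 0.20 (SE; adjusted p = 0.0918). The lowest week 2 value of both genes, 12.02 and 10.63, was in horse 10, one of the flat libraries. By limma ENSECAG00000003925 differed by 0.60 ± 0.68 (SE; adjusted p = 0.557). When each horse had its own term in the replicate block, limma gave an SE of 0.20 and an adjusted p of 0.0333. The first fit used 1 correlation of 0.18 for all genes. For this gene, with its 2 levels, the week 0 and week 2 values over 16 horses had r = 0.94. It was higher at week 2 in 14 of the 16 horses. Of the 276 variable genes, 158 (57.2%) were called, 49 higher and 109 lower, and of the 4344 stable genes 1064 (24.5%), 497 higher and 567 lower, beside 31.5% of the 5827 genes with a mean of at least 5, from which both sets were drawn. Of the 29 genes with a shared order, all part of the variable set, 9 were called lower and 0 higher. That share is close to the 31.5% and below the 57.2% of the variable set. Their median change was -0.57, against -0.50 in the variable set and 0.00 for all genes. All 3 sets were chosen on week 0 values, which enter this contrast.

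The spread between horses was also compared between the visits. The median SD of genes with a mean of at least 5 was 0.375 at week 0 and 0.571 at week 2 over 16 horses. In the 14 horses with a spread of at least 2 at both visits it was 0.339 and 0.295. The larger spread between horses at week 2 was thus present only with the flat libraries included.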

How the data were processed

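The authors deposited 1 table of normalised log2 CPM for 15838 genes in 93 libraries. The submitters' processing notes name STAR 2.7.10b, EquCab3.0 and limma 3.62.2, while for counting, strand, annotation and filter the entry is: not given in the sources used here. Thus reads of overlapping or near-identical genes may be shared. From each library's smallest value, taken as 0 reads plus 0.5, 100.0% of values were whole reads within 0.05 reads. No pair of libraries within an arm agreed within sampling noise (smallest chi-square per degree of freedom 65.2).

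Genes were tested with limma 3.58.1 (R 4.3.3) with a mean-variance trend on the deposited log2 values and Benjamini-Hochberg adjustment at 0.05, after tests on simulated data. Arms at week 0 used 16 libraries. Week 2 against week 0 used 32, with horse as a random block (consensus correlation 0.18). The pairing comes from the same animals, and deviations of the same horse correlated with a median of 0.04. Library values used exact permutation tests, and correlations over horses 100000 permutations. Other values came from Python 3.11.15 (scipy 1.17.1, pandas 2.3.3, numpy 2.4.6) and plots from matplotlib 3.10.9.

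With no gene names, 0 gene lists were tested, and 2 genes of each kind are named by identifier: highest mean, lowest SD and highest SD (mean of at least 5, top 5% with and without libraries of spread below 2) and lowest p in each direction between arms. The libraries, lists and rules were chosen with earlier results of these data known. Alternatives left out libraries or changed the scaling, filter, weights, block and measure of spread.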

Additional observations from a re-analysis of the deposited data

Results flagged for a closer look

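Within each arm of 8 horses, a library was picked out where its gap to the nearest other, divided by the range of the arm, exceeded Dixon's 95% critical value. This was so for 10 of the 36 groups of values tested. A chance rate of about 1 in 20 holds only for independent groups not chosen by their values. Here the library values overlap, and the named genes were chosen by values of these libraries. The count is therefore a description and was not tested against chance. Horse 11 was picked out among the Control horses for its low number of reads in genes (17431476, the others at 26166254 or more), high spread (4.21), many genes with no read (2360), few genes expected at the common depth (13361.3) and low median log2 CPM (3.84). Horse 14 was picked out among the iPAAG horses for its low spread (1.65) and its low median correlation with the other libraries (0.71). The genes chosen after their values were seen were not put through this rule. Of the other named genes, ENSECAG00000000817 was high in horse 1 (6.84, against 6.57 to 6.70 in the other Control horses). In horse 14, ENSECAG00000020835 was high (4.14, against 0.55 or lower in the other iPAAG horses) and ENSECAG00000020888 was low (7.53, against 8.24 to 8.53). Causes of these values were not tested.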

How the results depend on the processing

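No gene was called between the arms in any of the 27 alternatives run, including those that left out 1 horse (0 to 0 called); the unadjusted count ran from 166 to 1045 and the smallest adjusted p by limma from 0.193 to 1.00. The 4 genes named for that comparison kept their direction, with differences of 1.65 to 2.11 for ENSECAG00000016615, 2.27 to 4.85 for ENSECAG00000020835, -0.77 to -0.42 for ENSECAG00000020888 and -0.54 to -0.27 for ENSECAG00000019056. No paired analysis was possible because the arms share no horse. The planned edgeR and DESeq2 alternatives on recovered reads were not run, as a choice, because the deposited unit is log2. The recovered reads were used for the voom weights and for the fit with 5 added reads. At week 2, 3402 genes were called with no replicate block and 3862 with horse as a fixed replicate block. Without flat libraries 5730 were called (52.7% higher), 3112 with all 93 libraries and 4098 with voom weights, an alternative chosen after seeing the data. Centring each library on its median shifted the median change by 0.11 and moved the share of calls that were higher from 44.7% to 58.6% of 3858. ENSECAG00000032733 turned from lower to higher at week 2 without flat libraries (0.10) and with median centring (0.025). Between the arms, the difference in reads turned positive without flat libraries (1728044) and without those and horse 11 (230826), as did that of the top 100 share (0.47 and 0.79 percentage points). With a mean of at least 3 in place of 5, 6569 genes were stable and 36 variable. Of the 3 variable genes with a mean of at least 5, quantile normalisation left 1 and the interquartile range 1. Over all abundances 2400 genes were variable, 1261 with quantile normalisation and 1161 with the interquartile range. The causes were not tested. Genes with few reads are set largely by the added 0.5 reads, which limits the class below 0 most.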
